A study of Mus musculus with 24 samples.

Results

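A set of 10 genes of the neuronal cytoskeleton was followed here across every group of an RNA-seq experiment in Neuro2A cells, a mouse neuroblastoma line that can extend neurites. The set comprised the neurofilament subunit genes Nefl, Nefm and Nefh, the other neuronal intermediate filament genes Ina (α-internexin) and Prph (peripherin), the growth cone gene Gap43, the neuronal β-tubulin gene Tubb3, and the microtubule-associated protein genes Map1b, Map2 and Mapt. They were chosen by gene symbol, and all 10 were found among the 39253 genes of the deposited count table. The 24 libraries fell into 8 groups of 3 independent replicates of wild-type Neuro2A cells. Of these, 6 groups were transiently transfected with plasmids for 1 of 3 RNA-targeting effectors, namely RfxCas13d, its high-fidelity variant HiFi-RfxCas13d or DiCas7-11, with either a crRNA against mouse ataxin-2 (mATXN2) or a non-targeting control (NTG), and were harvested 48 h later. The other groups were untransfected cells and cells given an ataxin-2-targeting antisense oligonucleotide (ASO), for which no control oligonucleotide was analysed here. No harvest time was available here for either of them, so a difference in time cannot be told apart in the comparisons with untransfected cells. The labels name the control arm as a non-targeting crRNA, whereas the column names of the count table carry EV in its place, so what this arm received besides the effector was not settled. The guide number in the columns of the mATXN2 arms also differs from the one in the sample titles, for all 9 libraries of these arms. Transfected and untransfected cells within a dish were not separated as far as the sources state, so each value is an average over both, and fewer cells with a transcript cannot be told apart from less of it per cell. No reagent-only group was analysed here, so transfection itself and what was delivered cannot be told apart in the comparisons with untransfected cells.

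Library totals ran from 12665725 to 22504999 counts, with the ASO libraries the deepest of the 24, between 21874644 and 22504999. Levels are given as CPM, the count scaled to a common library size, with totals scaled by the trimmed mean of M-values (TMM), and calls are at an adjusted p under 0.05 over the 13901 genes tested in each comparison. The targeted gene Atxn2 stood at 123 ± 1.78 CPM in untransfected cells (SD, n = 3) and 52.0 ± 2.77 CPM with the ASO. Against the NTG arm it was 14.8% lower with HiFi-RfxCas13d and 13.0% lower with DiCas7-11, both called, and 6.87% lower with RfxCas13d, which was not called (edgeR adjusted p = 0.178). All 7 neuroblast markers had counts in all 24 libraries, among them Hand2 (360.1 to 410.4 CPM) and Elavl4. Gata3 (2.21 to 5.27 CPM) and Stmn2 (4.18 to 8.26 CPM) were the lowest of them. The astrocyte gene Aqp4 and the oligodendrocyte gene Olig2 had 0 counts throughout, while Mbp reached 14.2 CPM. Of the other lists, 0 of 4 astrocyte and 0 of 4 microglia markers passed the filter on low counts, as against 2 of 5 oligodendrocyte and 2 of 5 fibroblast markers. The fibroblast list summed to 8.1 to 8.56 CPM in untransfected cells and 5.18 to 8.26 CPM in the other groups, and its part in the differences from untransfected cells was not tested.

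Neuronal intermediate filaments are built from subunits that co-assemble, with Nefl as the core of the mature neurofilament and Nefm and Nefh as side-arm partners, while peripherin and α-internexin are typical of peripheral and of early central neurons. Microtubules run alongside them in the neurite, where MAP1B is abundant during axon outgrowth, MAP2 is sorted to dendrites and tau (Mapt) to axons. GAP-43 sits at the membrane of the growth cone, and class III β-tubulin (Tubb3) is widely used as a marker of neuronal commitment, and such genes are read together as a measure of neuronal differentiation.

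The filament genes of these cells were Prph, Nefh and Ina, and the light and medium neurofilament subunits were all but missing. Per kilobase (kb) of transcript, averaged over the 8 groups, Prph was highest at 412 CPM per kb, followed by Map1b at 231 and Tubb3 at 189.6. Nefh (107 CPM per kb), Gap43 (51.1), Ina (42.4), Mapt (30.3) and Map2 (18.8) came next. The order of the 10 genes was the same per kb of coding sequence. Without the length correction Map1b was the highest of them, ranked 10 among the 13901 genes tested by mean CPM, on a transcript of 11808 bases that is longer than that of 98.7% of the tested genes with a length.

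**Figure D1:**
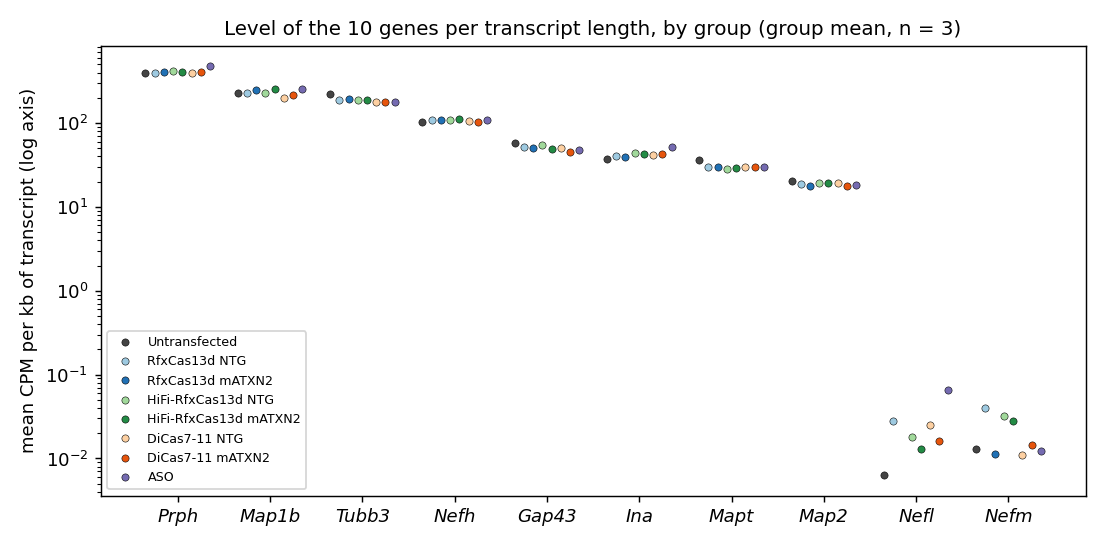
Mean CPM per kb of transcript (log axis) for the 10 genes, 1 point per group of 3 libraries; a group mean of 0 has no point. The 8 groups of each gene lie close together from Prph, near 412 CPM per kb, to Map2, near 18.8, and Nefl and Nefm lie below 0.1 CPM per kb.

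Nefl had a mean of 1.38 counts per library and Nefm of 1.28, against 7334 for Nefh. Nefl was at 0 counts in 10 of 24 libraries and above 3 counts in 4 of them, and Nefm was at 0 in 7 and above 3 in 2. A count of 0 allows up to 3 counts, or 0.133 to 0.237 CPM at these depths, for counting error only. In the ASO libraries Nefl held 5.996, 6.02 and 3.03 estimated counts, in the RfxCas13d mATXN2 libraries 0 in all 3, and in the untransfected libraries 0.997, 0 and 0. Both genes failed the filter on low counts, so 8 of the 10 genes were tested and nothing is said of a change in these neurofilament subunits.

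Among the filament subunits, Ina rose in 6 of the 7 groups compared with untransfected cells, most with the ASO. Untransfected cells held 123, 120.1 and 121 CPM of Ina in their 3 libraries, and ASO-treated cells 168, 167 and 166 CPM. All 21 libraries of the other 7 groups lay above all 3 untransfected ones. With RfxCas13d, Ina was at 131, 129.7 and 131 CPM in the NTG arm and 128, 127 and 131 CPM in the mATXN2 arm. With HiFi-RfxCas13d, Ina was at 144, 142 and 142 CPM in the NTG arm and 140.1, 138 and 134 CPM in the mATXN2 arm. With DiCas7-11, Ina was at 127, 139 and 136 CPM in the NTG arm and 137, 136 and 140.1 CPM in the mATXN2 arm. The ASO libraries stood above all 18 plasmid-transfected libraries. With the ASO, Ina rose by 37.3% (log2 fold change 0.46, SE 0.0287, edgeR adjusted p = 3.11e-13), where 42.7% of all tested genes were called. Among the plasmid groups the rise lay between 7.18% for RfxCas13d NTG (adjusted p = 0.0297) and 17.2% for HiFi-RfxCas13d NTG (adjusted p = 2.59e-06), and the value for RfxCas13d mATXN2 was 5.7% higher but was not called (adjusted p = 0.0864). The call in RfxCas13d NTG was lost with upper-quartile scaling and when every gene with a nonzero count was kept. It also rested on each of 5 libraries, being lost without replicate 1, 2 or 3 of that group or replicate 2 or 3 of the untransfected cells. Under these changes the edgeR adjusted p was up to 0.0908.

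Prph, the subunit with the highest level, was called higher with the ASO and, by a few percent, in both HiFi-RfxCas13d arms. Prph measured 733, 740.3 and 717 CPM in the 3 untransfected libraries and 881, 879 and 889 CPM in the 3 ASO libraries. The ASO values did not overlap those of any other group. The RfxCas13d arms held 734, 729 and 743 CPM with NTG and 762, 755 and 746 CPM with mATXN2. The HiFi-RfxCas13d arms held 789, 776 and 742 CPM with NTG and 777, 763 and 758 CPM with mATXN2. The DiCas7-11 arms held 758, 739 and 727 CPM with NTG and 751, 747 and 767 CPM with mATXN2. These 18 libraries spread over a narrow range around the untransfected ones, and 14 of them exceeded the highest untransfected value. The ASO difference was 20.9% (log2 fold change 0.27, SE 0.0219, edgeR adjusted p = 4.10e-11). In the HiFi-RfxCas13d NTG arm it was 5.25% (adjusted p = 0.0167) and in the mATXN2 arm 4.85% (adjusted p = 0.0251), and both of these calls were lost with upper-quartile scaling, without replicate 1 or 2 of the arm itself and without untransfected replicate 3, the second also without untransfected replicate 1 and with libraries thinned to one depth.

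Nefh, the heavy neurofilament subunit, had the smallest range of group means among the 8 tested genes, and the test for any difference among the 8 groups did not call it (adjusted p = 0.0692) although it called the other 7 tested genes, against 50.3% of all genes. Its level was 389.8, 409 and 419.9 CPM in the untransfected libraries and 419, 436 and 452 CPM in those with the ASO. These groups overlapped. Nefh values with RfxCas13d were 441, 426 and 438 CPM (NTG) and 432, 445 and 431 CPM (mATXN2). Nefh values with HiFi-RfxCas13d were 431, 437 and 449 CPM (NTG) and 448, 443 and 441 CPM (mATXN2). Nefh values with DiCas7-11 were 379.9, 456 and 437 CPM (NTG) and 398, 431 and 404 CPM (mATXN2). The widest spread was in DiCas7-11 NTG, where replicate 1 was the lowest of the 24 libraries. Nefh was called higher with HiFi-RfxCas13d mATXN2, by 9.42% (log2 fold change 0.13, SE 0.0419, edgeR adjusted p = 0.0245), and with the ASO, by 7.31% (log2 fold change 0.10, SE 0.0415, edgeR adjusted p = 0.0482). The ASO call was lost with DESeq2, with limma-trend and with edgeR adjusted over the 10 comparisons together, and without untransfected replicate 1 or 2 or ASO replicate 2 or 3, and the HiFi-RfxCas13d call was lost with upper-quartile scaling and without replicate 1 or 2 of that arm or replicate 1 of the untransfected cells.

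**Figure D2:**
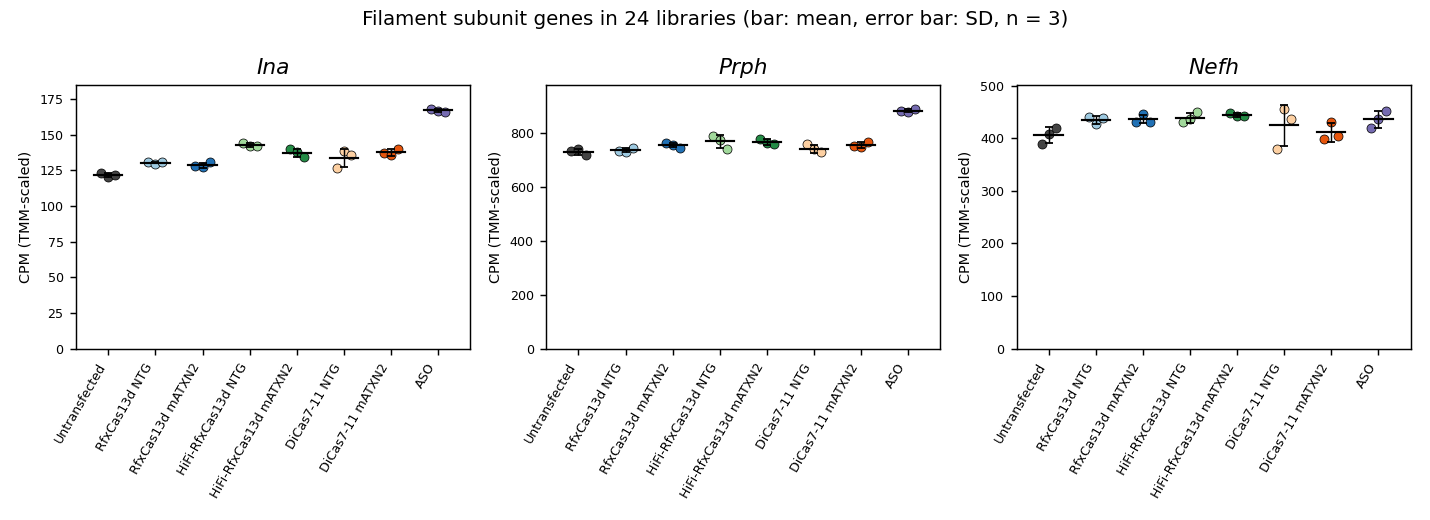
CPM of Ina, Prph and Nefh in each of the 24 libraries (points), with the mean (bar) and SD (error bar) of each group of 3. The ASO libraries of Ina (166.3 to 168.1 CPM) and Prph (879 to 889 CPM) lie above every other library, and Nefh spans 379.9 to 456 CPM.

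Set against each other per kb of transcript, Prph made up 73.8% ± 0.741 of the 5 filament genes in untransfected cells, Nefh 19.1% ± 0.753 and Ina 7.07% ± 0.148 (SD, n = 3). With the ASO the shares were 74.7% ± 0.368, 17.2% ± 0.486 and 8.12% ± 0.122. The Nefh share did not overlap between these groups, with at most 17.6% in an ASO library and at least 18.4% in an untransfected one. The Ina share was at least 7.997% with the ASO and at most 7.19% in untransfected cells. Nefl and Nefm together stayed under 0.02% in the mean of every group. With 3 libraries a side the exact permutation test cannot give a two-sided p below 0.1, so these shares are given as values only.

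Tubb3, the neuronal β-tubulin gene, fell in all 7 groups compared with untransfected cells, by 11.3% to 20.2%. Untransfected cells held 413, 423 and 402 CPM of Tubb3 in their 3 libraries, and ASO-treated cells 325, 338 and 325 CPM. All 21 other libraries lay below all 3 untransfected ones. With RfxCas13d, Tubb3 was at 354, 353 and 355 CPM in the NTG arm and 361, 362 and 376 CPM in the mATXN2 arm. With HiFi-RfxCas13d, Tubb3 was at 358, 356 and 344 CPM in the NTG arm and 372, 345 and 349 CPM in the mATXN2 arm. With DiCas7-11, Tubb3 was at 338, 327 and 329 CPM in the NTG arm and 324, 334 and 338 CPM in the mATXN2 arm. The smallest fall was in RfxCas13d mATXN2 (log2 fold change -0.17, SE 0.0282, edgeR adjusted p = 9.54e-05) and the largest with the ASO (log2 fold change -0.33, SE 0.0278, edgeR adjusted p = 1.53e-10). The neuroblast marker list, which holds Tubb3, summed to 1218 to 1256 CPM with the ASO for 7 of 7 markers. It summed to 1348 to 1386 CPM in untransfected cells and to 1271 to 1342 CPM in the plasmid groups. This sum partly restates the fall of Tubb3 itself, from a mean of 413 to 329 CPM with the ASO. The list was not summed without Tubb3. The part of such markers in the fall of Tubb3 was not tested. Each of the 7 calls was kept under all 12 alternative settings and without any single library of its 2 groups.

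Mapt, which encodes tau, also fell in all 7 groups. Mapt measured 200.05, 183 and 183 CPM in the 3 untransfected libraries and 169, 151 and 151 CPM in the 3 ASO libraries. All 21 other libraries were again below the untransfected ones, whose replicate 1 was the highest of the 24. The RfxCas13d arms held 156, 151 and 159.9 CPM with NTG and 162, 152 and 156 CPM with mATXN2. The HiFi-RfxCas13d arms held 151, 145 and 149 CPM with NTG and 158, 149 and 151 CPM with mATXN2. The DiCas7-11 arms held 159, 149 and 162 CPM with NTG and 165, 155 and 158 CPM with mATXN2. The fall ranged from 15.7% in DiCas7-11 mATXN2 (log2 fold change -0.25, SE 0.0422, edgeR adjusted p = 6.57e-05) to 21.6% in HiFi-RfxCas13d NTG (log2 fold change -0.35, SE 0.0427, edgeR adjusted p = 1.06e-06). With the ASO it was 16.8% (log2 fold change -0.27, SE 0.0413, edgeR adjusted p = 5.91e-06). These 7 calls too were kept under every alternative setting and without each library.

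Map2, the dendritic microtubule-associated protein gene, was lower by a smaller amount. Its level was 128, 129 and 129 CPM in the untransfected libraries and 112, 113 and 116 CPM in those with the ASO. The untransfected libraries had an SD of 0.465 CPM, and all 21 others lay below them. Map2 values with RfxCas13d were 120.4, 113 and 117 CPM (NTG) and 111, 112 and 107 CPM (mATXN2). Map2 values with HiFi-RfxCas13d were 114, 119 and 125 CPM (NTG) and 114, 124 and 119 CPM (mATXN2). Map2 values with DiCas7-11 were 112, 124 and 122 CPM (NTG) and 109, 112 and 115 CPM (mATXN2). Map2 fell in 6 of 7 groups, from 7.17% in HiFi-RfxCas13d NTG (log2 fold change -0.11, SE 0.0386, edgeR adjusted p = 0.0471) to 14.4% in RfxCas13d mATXN2 (log2 fold change -0.22, SE 0.0393, edgeR adjusted p = 2.31e-04). In DiCas7-11 NTG it was 7.07% lower and was not called (adjusted p = 0.0506). The HiFi-RfxCas13d NTG call was lost under 7 of 12 alternatives and the HiFi-RfxCas13d mATXN2 call (adjusted p = 0.0391) under 3 of 12, both were lost without any 1 of the 3 untransfected replicates or without replicate 1 of the arm itself, the NTG call also without replicate 2 and the mATXN2 call without replicate 3, and the RfxCas13d NTG call was lost without its replicate 2 or untransfected replicate 2 or 3.

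Gap43, a growth cone gene, was lower than in untransfected cells in 21 of 21 libraries as well and was called in 6 of 7 groups. Untransfected cells held 81.6, 83.3 and 84.7 CPM of Gap43 in their 3 libraries, and ASO-treated cells 66.0, 68.4 and 69.8 CPM. The ASO values did not overlap the untransfected ones. With RfxCas13d, Gap43 was at 72.9, 69.0 and 76.5 CPM in the NTG arm and 70.5, 74.8 and 70.1 CPM in the mATXN2 arm. With HiFi-RfxCas13d, Gap43 was at 73.3, 79.4 and 81.2 CPM in the NTG arm and 65.2, 75.1 and 69.3 CPM in the mATXN2 arm. With DiCas7-11, Gap43 was at 64.7, 79.4 and 71.6 CPM in the NTG arm and 65.9, 65.0 and 63.0 CPM in the mATXN2 arm. The largest fall was 22.2% in DiCas7-11 mATXN2 (log2 fold change -0.36, SE 0.0566, edgeR adjusted p = 1.94e-05), and with the ASO it was 18.1% (log2 fold change -0.29, SE 0.0545, edgeR adjusted p = 8.55e-05). HiFi-RfxCas13d NTG, 6.13% lower, was not called (adjusted p = 0.265). The RfxCas13d NTG call (adjusted p = 0.0265) was lost with a transcript length correction and without replicate 1 or 2 of that group or replicate 2 or 3 of the untransfected cells, the RfxCas13d mATXN2 call (adjusted p = 0.0138) without its replicate 1 or 3, and the DiCas7-11 NTG call without its replicate 1, where the value was -0.14 (adjusted p = 0.0678).

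Map1b, the microtubule-associated protein gene of growing axons, was called in both directions. Map1b measured 2775, 2654 and 2553 CPM in the 3 untransfected libraries and 2932, 3035 and 2999 CPM in the 3 ASO libraries. The ASO values were higher, without overlap. The RfxCas13d arms held 2577, 2592 and 2837 CPM with NTG and 2916, 2902 and 2949 CPM with mATXN2. The HiFi-RfxCas13d arms held 2637, 2582 and 2769 CPM with NTG and 3019, 3054 and 2944 CPM with mATXN2. The DiCas7-11 arms held 2229, 2283 and 2582 CPM with NTG and 2680, 2502 and 2427 CPM with mATXN2. Within each effector the mean was higher with mATXN2 than with NTG, and in RfxCas13d and HiFi-RfxCas13d the 2 arms did not overlap. Against untransfected cells Map1b rose with HiFi-RfxCas13d mATXN2 (log2 fold change 0.18, SE 0.0413, edgeR adjusted p = 0.00264), RfxCas13d mATXN2 (log2 fold change 0.13, SE 0.0414, edgeR adjusted p = 0.0306) and the ASO (log2 fold change 0.17, SE 0.0413, edgeR adjusted p = 0.00155), and fell with DiCas7-11 NTG (log2 fold change -0.17, SE 0.0415, edgeR adjusted p = 0.00328), where 1 NTG library overlapped the untransfected ones. With a transcript length correction the ASO value dropped to 0.04 (adjusted p = 0.231) and was no longer called, also with the replicate block. The RfxCas13d mATXN2 call was lost with DESeq2, without any 1 of its 3 replicates and without untransfected replicate 2 or 3.

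**Figure D3:**
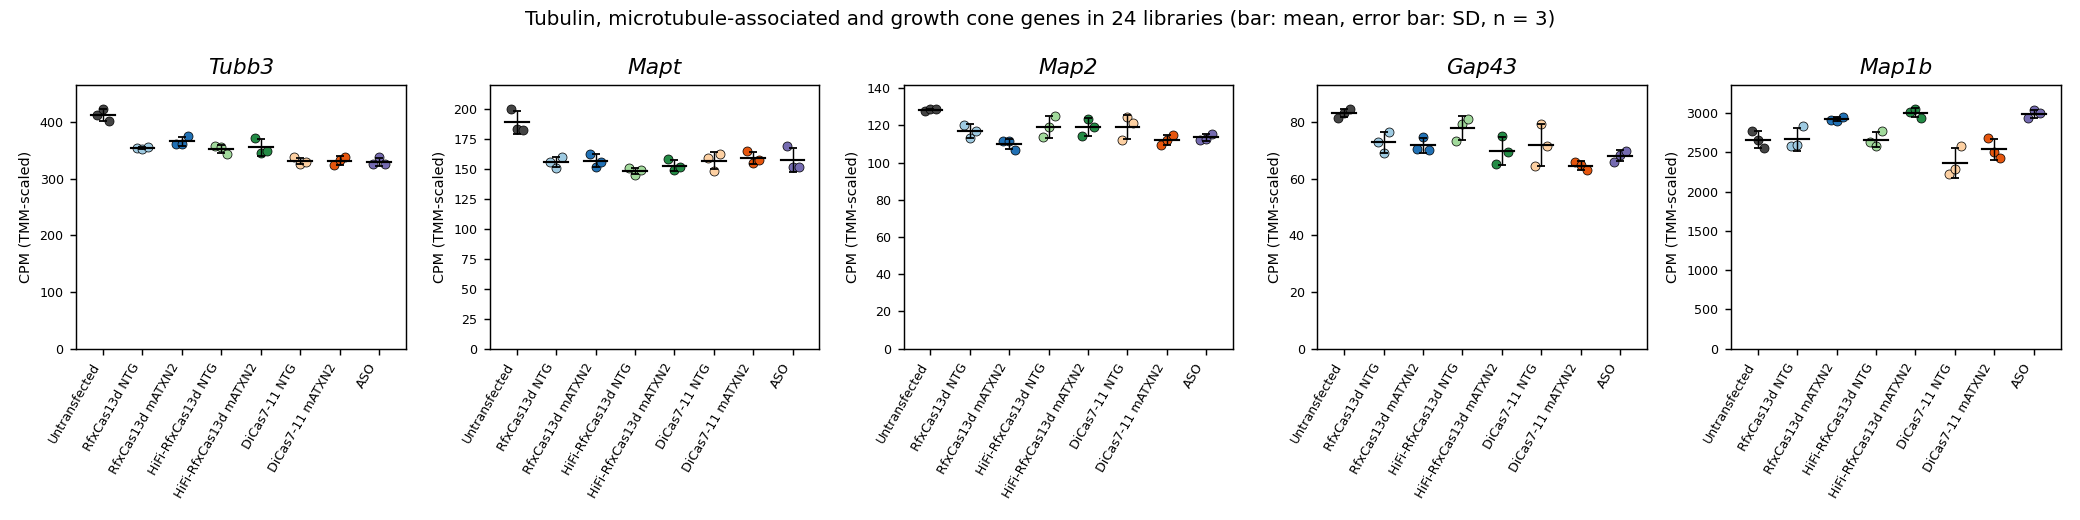
CPM of Tubb3, Mapt, Map2, Gap43 and Map1b in each of the 24 libraries (points), with the mean (bar) and SD (error bar) of each group of 3. For Tubb3, Mapt, Map2 and Gap43 the 3 untransfected libraries lie above all 21 others, and Map1b spans 2229 to 3054 CPM with its lowest library in DiCas7-11 NTG.

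Counted over the 8 tested genes, 5 were called against untransfected cells in each NTG arm, with 1 higher and 4 lower for RfxCas13d, 2 and 3 for HiFi-RfxCas13d and 1 and 4 for DiCas7-11. Of all tested genes, 11.3%, 20.9% and 21.9% were called in these 3 comparisons. In the mATXN2 arms the counts were 5, 8 and 5, against 12%, 22.2% and 25.3% of all genes, with 4 lower in each. With the ASO all 8 were called, 4 higher and 4 lower, against 42.7%. By direction, the share of all genes called was 5.6% higher and 5.66% lower for RfxCas13d NTG, 10.3% and 10.6% for HiFi-RfxCas13d NTG, and 11.1% and 10.8% for DiCas7-11 NTG. For the mATXN2 arms it was 5.98% and 6.03%, 11.3% and 10.9%, and 12.5% and 12.8%, in the same order of effectors, and for the ASO 21% and 21.7%. Libraries did not overlap with the untransfected ones for 6, 7 and 5 of the 8 genes in the NTG arms (28.6%, 35.7% and 31.9% of all genes), for 8, 8 and 6 in the mATXN2 arms (29%, 36.4% and 38.9%) and for 7 with the ASO (51.8%). The median log2 fold change of the 8 lay between -0.14 and -0.02 in the 7 comparisons, and that of all tested genes between -0.01 and 0.00. The 7 comparisons share the same 3 untransfected libraries, and a difference common to the 7 groups cannot be told apart from one particular to these libraries.

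**Figure D4:**
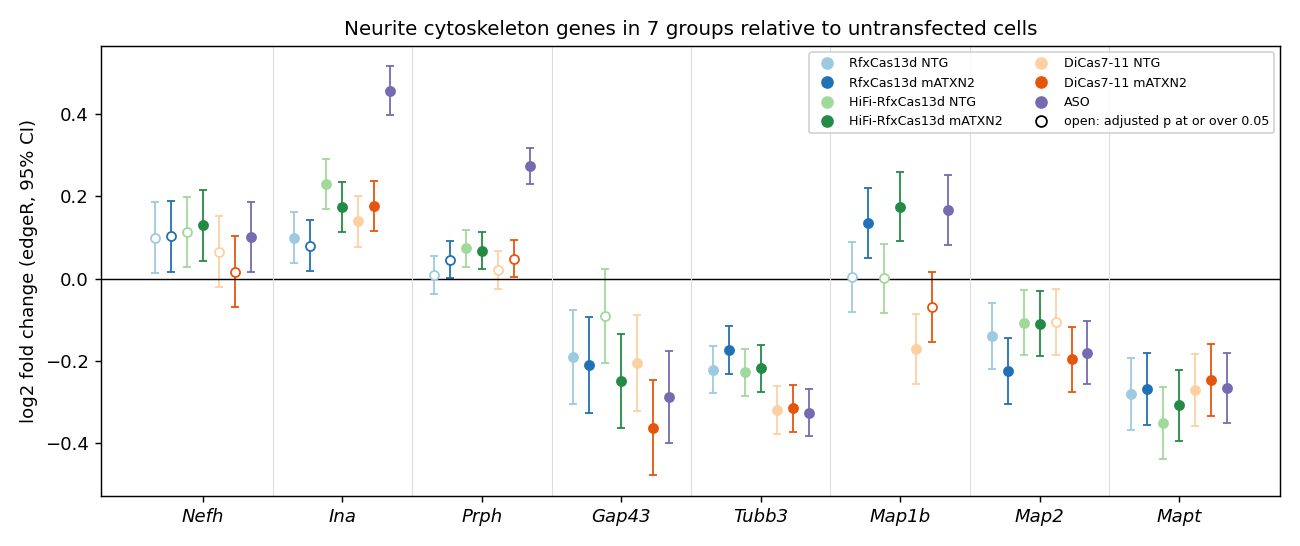
Log2 fold change with its 95% confidence interval (edgeR) of the 8 tested genes in 7 groups against untransfected cells; filled points passed an adjusted p of 0.05 and open points did not. Gap43, Tubb3, Map2 and Mapt lie below 0 in every group, Ina lies above 0 in every group, and Map1b falls on both sides.

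RefSeq promoters (GRCm38.p6, 250 bases before to 50 after the transcription start) were matched for 5 of the 10 genes, Ina, Prph, Tubb3, Map1b and Map2. This build differs from the GRCm39 of the counts and serves the sequences only. Those of Ina and Prph, which rose with the ASO, and of Tubb3 and Map2, which fell, are shown to set the members that moved in opposite directions beside each other. Capitals mark matches on either strand to 3 short motifs, which do not overlap here. They are the core promoter hexamer TATAAA, the GC box with the letters GGGCGG and the E box with the letters CAGCTG.
Ina, chr19:47014431-47014730 (+): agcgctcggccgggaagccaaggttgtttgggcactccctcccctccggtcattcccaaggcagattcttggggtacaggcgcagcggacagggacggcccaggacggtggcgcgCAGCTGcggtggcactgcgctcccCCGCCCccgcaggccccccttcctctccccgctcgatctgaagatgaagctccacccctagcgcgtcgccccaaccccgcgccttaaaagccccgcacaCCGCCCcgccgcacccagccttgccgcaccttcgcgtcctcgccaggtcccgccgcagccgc
Prph, chr15:99054924-99055223 (+): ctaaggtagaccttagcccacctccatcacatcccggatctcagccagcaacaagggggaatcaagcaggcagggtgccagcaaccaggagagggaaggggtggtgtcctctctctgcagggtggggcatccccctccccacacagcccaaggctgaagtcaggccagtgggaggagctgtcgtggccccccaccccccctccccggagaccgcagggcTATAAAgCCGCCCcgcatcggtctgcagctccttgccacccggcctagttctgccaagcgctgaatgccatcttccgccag
Tubb3, chr8:123411303-123411602 (+): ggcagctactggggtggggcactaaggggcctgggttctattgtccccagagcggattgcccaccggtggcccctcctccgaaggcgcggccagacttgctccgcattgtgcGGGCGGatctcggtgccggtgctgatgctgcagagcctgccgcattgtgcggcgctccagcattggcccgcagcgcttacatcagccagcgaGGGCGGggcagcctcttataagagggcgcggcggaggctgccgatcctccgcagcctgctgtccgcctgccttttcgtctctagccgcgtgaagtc
Map2, chr1:66175079-66175378 (+): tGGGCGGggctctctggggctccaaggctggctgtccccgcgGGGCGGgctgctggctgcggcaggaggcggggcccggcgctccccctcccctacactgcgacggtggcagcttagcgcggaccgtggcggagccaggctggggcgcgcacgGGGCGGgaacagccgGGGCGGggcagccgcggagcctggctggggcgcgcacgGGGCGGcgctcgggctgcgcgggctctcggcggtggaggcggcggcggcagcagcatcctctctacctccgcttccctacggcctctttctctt

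The GC box was found in 1 place in Prph, in 2 places in Ina and in Tubb3, and in 5 in Map2, and 35.7% of the 32851 promoters in the table hold it. TATAAA lay 31 bases before the start of Prph and in none of the other windows shown, with 13.6% of all promoters holding it. The matched window of Map1b, which is not shown, held TATAAA 99 bases before the start and the GC box in 2 places. CAGCTG was found in Ina, 135 bases before the start, and is in 16.3% of all promoters. The 4 sequences had 64.7% to 77.7% G and C, against a median of 52.7% over the table. The matches describe letters in these windows only.

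Whether targeting ataxin-2 changed the neurite cytoskeleton was compared within each effector, between the mATXN2 and NTG arms. Of the 8 tested genes, 0 were called by edgeR with RfxCas13d, HiFi-RfxCas13d or DiCas7-11, where 1.39%, 0.295% and 0.942% of all genes were. At an unadjusted p under 0.05 there were 2, 2 and 3, respectively, beside 1913, 1035 and 1951 of all 13901 genes. DESeq2 called 0 in each, and limma-trend, adjusted over the 10 comparisons together, called 1, 1 and 0, in both cases Map1b. The 8 log2 fold changes lay between -0.09 and 0.13 with RfxCas13d, -0.16 and 0.17 with HiFi-RfxCas13d, and -0.16 and 0.10 with DiCas7-11. The 2 arms did not overlap for 4, 2 and 0 of the 8 genes, against 20.2%, 13.2% and 14.6% of all genes.

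Map1b had the lowest p of the 8 genes with RfxCas13d and HiFi-RfxCas13d, and Gap43 had it with DiCas7-11. Map1b values in the mATXN2 arm were 9.52% higher with RfxCas13d (log2 fold change 0.13, SE 0.0414, edgeR adjusted p = 0.113, 95% CI 0.05 to 0.22), 12.9% higher with HiFi-RfxCas13d (adjusted p = 0.0668, CI 0.09 to 0.26) and 7.3% higher with DiCas7-11 (adjusted p = 0.244, CI 0.02 to 0.19). It was called with RfxCas13d (adjusted p = 0.00415) and HiFi-RfxCas13d (1.02e-04) when only the samples compared were fitted, and for all 3 effectors when every gene with a nonzero count was kept. With the transcript length correction the log2 values were smaller and were not called, at 0.08 with RfxCas13d (adjusted p = 0.133), 0.11 with HiFi-RfxCas13d (adjusted p = 0.0760) and 0.04 with DiCas7-11 (adjusted p = 0.462). Without RfxCas13d NTG replicate 3 it was called at 0.18 (adjusted p = 0.0394) and without DiCas7-11 NTG replicate 3 at 0.17 (adjusted p = 0.0187), each the highest library of its arm. The DiCas7-11 value was 0.06 without NTG replicate 1 (adjusted p = 0.477) and 0.06 without mATXN2 replicate 1 (adjusted p = 0.658).

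Gap43 had values 10.3% lower with HiFi-RfxCas13d mATXN2 (log2 fold change -0.16, SE 0.0556, edgeR adjusted p = 0.405) and 10.3% lower with DiCas7-11 mATXN2 (adjusted p = 0.193), with overlap of the arms in both. Without DiCas7-11 NTG replicate 1, 3 genes were called for DiCas7-11, namely Nefh, Gap43 (-0.22, adjusted p = 0.0199) and Map2 (-0.13, adjusted p = 0.0499). Without DiCas7-11 NTG replicate 2, Gap43 was at -0.08 (adjusted p = 0.758) and Map2 at -0.06 (adjusted p = 0.746). NTG replicate 1 had the lowest Nefh, Gap43, Ina, Map2 and Map1b values of its arm, and its total of 13607843 counts was the lowest among the transfected libraries. The intervals for Tubb3 and Mapt across the 3 effectors spanned -0.08 to 0.13, so a change of the size seen against untransfected cells lay outside them.

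**Figure D5:**
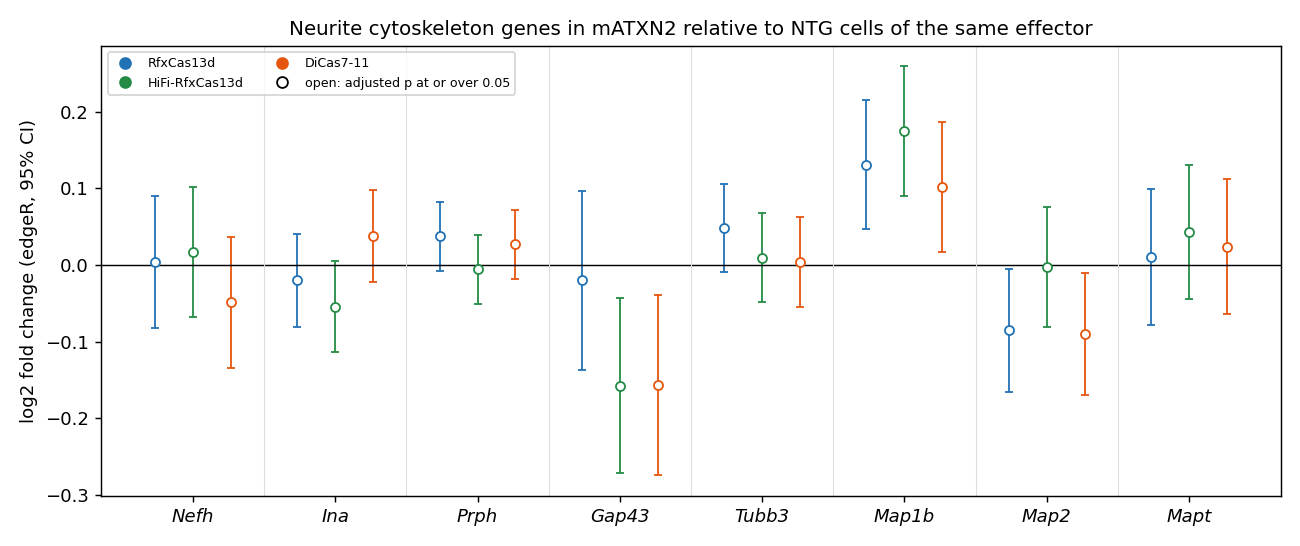
Log2 fold change with its 95% confidence interval (edgeR) of the 8 tested genes between the mATXN2 and NTG arms of each effector; all points are open, since none passed an adjusted p of 0.05. Map1b lies above 0 for all 3 effectors, at 0.13, 0.17 and 0.10.

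The effect of the ataxin-2 crRNA was also compared between effectors. Of the 8 genes, 0 were called in any of the 3 differences by edgeR, DESeq2 or limma-trend, as were 0 of all 13901 genes by edgeR. At an unadjusted p under 0.05 the member counts were 0, 0 and 1, the last being Ina between DiCas7-11 and HiFi-RfxCas13d (log2 fold change 0.09, SE 0.0412, edgeR adjusted p = 0.65, 95% CI 0.01 to 0.18), and 855, 1084 and 1028 of all genes passed. For Map1b the largest of the 3 differences was -0.07 (CI -0.19 to 0.05) between the same pair. For Gap43 the difference between HiFi-RfxCas13d and RfxCas13d was -0.14 (CI -0.30 to 0.03), which includes 0.

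Ordered by mean level, the 8 groups differed between neighbours at 5 places in the 56 neighbouring pairs of the 8 tested genes. For Ina and Prph the ASO group was highest and stood apart from the next, HiFi-RfxCas13d NTG, by 0.23 and 0.20 on the log2 scale (adjusted p = 2.74e-07 and 3.69e-08). For Tubb3, Map2 and Mapt the untransfected group was highest and differed from the next by 0.17, 0.11 and 0.25 (adjusted p = 9.54e-05, 0.0471 and 6.57e-05). In the other 51 pairs the difference was not beyond the spread that the test allows for. For Gap43 the untransfected group was also highest but the step to HiFi-RfxCas13d NTG did not pass, and for Map1b the order ran from DiCas7-11 NTG and mATXN2 at the bottom to the ASO and HiFi-RfxCas13d mATXN2 at the top with no step that passed. The groups of Nefh ran from untransfected, 406 CPM, to HiFi-RfxCas13d mATXN2, 444 CPM.

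Genes of the same structures outside the 10 were counted by list, 110 genes in all. Of 8 tubulin genes tested, 0 rose in any group and 4 to 6 fell in each of the 7 comparisons with untransfected cells, 6 of them with the ASO. Tubb2b, a β-tubulin of developing neurons, fell from 203 to 145 CPM in DiCas7-11 mATXN2 (log2 fold change -0.49). Of 28 other microtubule-associated genes, 0 rose and 4 fell in RfxCas13d NTG and 6 rose and 11 fell with the ASO, where 42.7% of all genes were called. The stathmin gene Stmn4 fell from 17.5 to 14.1 CPM in RfxCas13d NTG. Of 17 growth cone and outgrowth genes, 5 to 7 fell in each of the 7 comparisons and at most 1 rose, and Marcks, an actin-binding membrane protein gene, fell from 238.4 to 138 CPM with the ASO (log2 fold change -0.78). Among all genes, 5.66% to 21.7% were called lower in these comparisons. With the ASO the median log2 fold change was -0.15 over the tubulins, -0.15 over the microtubule-associated genes and -0.14 over the growth cone genes. Of 11 genes for other intermediate filaments and their linkers, 0 rose and 2 fell in RfxCas13d NTG and 2 rose and 4 fell with the ASO. In HiFi-RfxCas13d NTG 0 rose and 5 fell, and in DiCas7-11 NTG 1 rose and 3 fell. In the mATXN2 arms of RfxCas13d, HiFi-RfxCas13d and DiCas7-11, 0, 1 and 3 rose and 2, 2 and 3 fell. Of 11 transport motor genes, 2 rose and 1 fell in RfxCas13d NTG and 5 rose and 2 fell with the ASO. In HiFi-RfxCas13d NTG 1 rose and 3 fell, and in DiCas7-11 NTG 2 rose and 0 fell. In the mATXN2 arms, in the same order, 1, 4 and 3 rose and 4, 3 and 2 fell. Among all genes, 5.6% (RfxCas13d NTG) to 21% (ASO) were called higher.

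Of the 12 pan-neuronal genes tested, 0 rose and 8 fell with the ASO, where 21.7% of all genes were called lower. In the NTG arms 2, 4 and 4 fell with RfxCas13d, HiFi-RfxCas13d and DiCas7-11 and 1, 1 and 0 rose, and in the mATXN2 arms 3, 6 and 5 fell and 0, 1 and 0 rose, where 5.66% to 12.8% of all genes were called lower. Eno2, neuronal enolase, fell from 73.9 to 33.8 CPM with the ASO (log2 fold change -1.13) and was also called in HiFi-RfxCas13d NTG, DiCas7-11 NTG and all 3 mATXN2 arms. Of the 9 progenitor and cell cycle genes tested, 4 to 6 rose in each of the 7 comparisons, against 5.6% to 21% of all genes, and 1 fell in HiFi-RfxCas13d NTG, 2 in DiCas7-11 mATXN2 and 2 with the ASO. The largest rises were those of Id2 and Id3, which encode inhibitors of helix-loop-helix factors. Id3 went from 7.28 to 19.9 CPM with the ASO (log2 fold change 1.46) and Id2 from 9.1 to 24.8 CPM in HiFi-RfxCas13d mATXN2 (log2 fold change 1.44), and both were called in all 7 groups. Mki67 and Top2a, genes of proliferating cells, were called in opposite directions with the ASO, Mki67 at 0.16 and Top2a at -0.36, 2 genes named after their values were seen.

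Between the mATXN2 and NTG arms, the tubulin, growth cone and progenitor lists had 0 of 8, 0 of 17 and 0 of 9 genes called by edgeR for each effector. At an unadjusted p under 0.05 there were 4, 0 and 2 tubulin genes, 2, 0 and 6 growth cone genes and 3, 1 and 1 progenitor genes with RfxCas13d, HiFi-RfxCas13d and DiCas7-11, against 1913, 1035 and 1951 of all 13901 genes, and other tools were not run on these lists. For every effector, 2 of 11 other filament and linker genes, 1 of 11 motor genes and 1 of 28 microtubule-associated genes were called higher and 0 lower, beside 1.39%, 0.295% and 0.942% of all genes called with RfxCas13d, HiFi-RfxCas13d and DiCas7-11. Of the 12 pan-neuronal genes, 0 were higher in any of the 3, and 1, 0 and 1 were lower. Dync1h1, the heavy chain of cytoplasmic dynein, rose with all 3 effectors, from 258 to 355 CPM with RfxCas13d (log2 fold change 0.46), from 252 to 356 CPM with HiFi-RfxCas13d and from 269 to 360.2 CPM with DiCas7-11. Dst, which encodes the linker dystonin, rose from 155 to 194 CPM with RfxCas13d, from 158 to 201 CPM with HiFi-RfxCas13d and from 173 to 208 CPM with DiCas7-11. With DiCas7-11, Dst did not meet the rule of a call without overlap of the arms, which it met with RfxCas13d and HiFi-RfxCas13d. Plec, the gene of the linker plectin, named after its values were seen, rose from 160.4 to 193 CPM, from 168 to 192 CPM and from 171 to 199.7 CPM in the same order. Map1a, the relative of Map1b, rose from 139.9 to 166 CPM with RfxCas13d, from 139 to 165 CPM with HiFi-RfxCas13d and from 148 to 177 CPM with DiCas7-11 (log2 fold change 0.25). The transcript length correction, under which the Map1b values were smaller, was not run for the genes of these lists. Syt1, a synaptic vesicle calcium sensor, fell by 11.99% with RfxCas13d, and Elavl4, a neuronal RNA-binding protein gene, fell by 8.37% with DiCas7-11.

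For the 3 members with the widest range of group means, Ina, Gap43 and Mapt, the genes with the most similar profile over the 24 libraries were sought among 10913 genes with a mean of at least 50 counts. Ina was followed by Lratd2 (Pearson r = 0.943), Ecpas, Thrap3, Nyap2 and Washc2, all at or above 0.925. Gap43 was followed by Nsa2 (0.883), Rpl4, Rps6-ps4, Cdk5rap3 and Svip, down to 0.82, and Rps6-ps4 is a pseudogene whose reads cannot be told from those of its parent gene with certainty. Mapt was followed by Neurl1a (0.858), Plcg1, Neurl1b, Npnt and Acta2, down to 0.835. These correlations describe libraries that share group differences and depth, and carry no test.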

How the data were processed

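RNA-seq was analysed in 24 Neuro2A libraries. The authors deposited estimated counts per gene, made with Salmon 1.5.2 on GRCm39 and summarised in R 4.2.2 with tximport (lengthScaledTPM), so a gene's count already carries a correction for transcript length between libraries. These expected counts were rounded and fitted here in one model over all 8 groups with edgeR 4.0.16 (R 4.3.3), using TMM scaling, the quasi-likelihood test and Benjamini-Hochberg adjustment within each comparison at 0.05, on the 13901 of 39253 genes that reached 0.5 CPM in 3 or more libraries. Each table column was tied to its sample through the effector, the arm and the replicate number in its name. The genes and lists were chosen with earlier results of these data known. Named were all 10 genes, Atxn2, at most 2 rises and 2 falls per comparison from the lists (mean of at least 50 counts, groups without overlap), and the 5 genes most like each of 3 members. Transcript lengths came from a GRCm38 annotation and covered 88.4% of the tested genes. Replicate libraries differed by more than sampling noise (chi-square per gene 1.66 to 6.11). Totals of 12665725 to 22504999 counts set the precision, and floors cover counting error only. Of 30 pairs of same-numbered replicates, 7 deviated together with a correlation over 0.1 (range -0.101 to 0.2). In no comparison was every pair over 0.1. Alternatives were RLE and upper-quartile scaling, other gene filters, a replicate block, a length correction, limma-trend 3.58.1, DESeq2 1.42.0, fits of the compared samples only and each library left out. Thinning all libraries to the lowest total was chosen after seeing the data. Some marker genes are not reported here.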

Additional observations from a re-analysis of the deposited data

How the results depend on the processing

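Of the 41 calls against untransfected cells, 31 were kept under all 12 alternative settings, 29 without any single library and 28 under both, and no called value changed sign. Among all 80 values, 14 changed sign under some alternative, each with a log2 size of at most 0.0486 to begin with. Of the 8 tested members, 0 were called between the mATXN2 and NTG arms in the main fit. However, 1 (Map1b) was called with RfxCas13d and with HiFi-RfxCas13d when every gene with a nonzero count was kept, with limma-trend or edgeR adjusted over the comparisons together and with only the samples compared. In addition, 1 was called with HiFi-RfxCas13d under the length correction with the replicate block, and 1 with DiCas7-11 when every gene with a nonzero count was kept. The cause was not tested. Leaving out 1 library gave 0 to 1 called genes for RfxCas13d, 0 to 0 for HiFi-RfxCas13d and 0 to 3 for DiCas7-11 in these comparisons. Against untransfected cells the counts ran from 2 to 5 for RfxCas13d NTG, 3 to 5 for HiFi-RfxCas13d NTG, 5 to 6 for DiCas7-11 NTG, 3 to 5 for RfxCas13d mATXN2, 5 to 7 for HiFi-RfxCas13d mATXN2, 5 to 5 for DiCas7-11 mATXN2 and 7 to 8 for the ASO. The low counts came without replicate 1 or 2 of RfxCas13d NTG, replicate 1 or 2 of HiFi-RfxCas13d NTG, replicate 1 or 3 of RfxCas13d mATXN2, replicate 1 of HiFi-RfxCas13d mATXN2, or, for RfxCas13d NTG, untransfected replicate 2 or 3, and, for HiFi-RfxCas13d mATXN2, untransfected replicate 1. The count of neighbouring groups that differed was 5, against 8 with a transcript length correction, 9 with that correction and the replicate block, and 4 to 8 with 1 library left out, 8 without DiCas7-11 NTG replicate 1. Same-numbered libraries were at most weakly correlated, with 7 of 30 pairs over 0.1. The replicate block kept 41 of 41 calls and gave 8 genes with any difference among the groups, against 7. Depth limits Nefl and Nefm, which stayed near the 3 counts that a count of 0 allows.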
